A study of Rattus norvegicus with 12 samples.

Results

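Cholesterol synthesis and efflux genes were followed in the contused spinal cord of AN (Athymic Nude) and SD (Sprague-Dawley) rats. The genes were chosen by name, with earlier results of these data known, and are the synthesis enzymes Hmgcs1, Fdft1, Sqle and Dhcr7, the regulator Srebf2, and the efflux pumps Abca1 and Abcg1. Of these 7 genes, 6 were matched to a row among the 17423 genes of each table. No row was matched to Hmgcs1, the enzyme that makes HMG-CoA for the mevalonate pathway, and it was not analysed here. FPKM, the level of a gene as sequenced fragments scaled to its exon length and to the size of the library, was 1 or more for all 6 matched genes in each group.

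All rats were females aged 16 to 18 weeks when their thoracic cord was contused at 200 kdyn. Polyadenylated RNA came from a segment of 1 mm through the injury, taken after perfusion with saline. AN rats are of the Hsd:RH-rnu/rnu line, which is homozygous for a mutation that leaves them without a functional thymus, and SD rats are of the immunocompetent Hsd:SD line. The 12 rats formed 4 groups of 3, with each strain taken 1 week after injury, called the acute phase, or 8 weeks after it, called the chronic phase. The AN line has its own background, so T cell deficiency and other differences between the lines cannot be told apart. The study asked which transcripts differ between the strains in each phase.

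Cells make cholesterol from acetyl-CoA through the mevalonate pathway and a series of sterol-modifying enzymes. When sterol is scarce, SREBP-2, the protein encoded by Srebf2, enters the nucleus and raises transcription of these enzymes. When sterol is abundant, its oxidized forms activate the LXR receptors, which raise the pumps that pass cholesterol to lipoproteins. In the cord, oligodendrocytes make large amounts of cholesterol for myelin, and phagocytes that engulf myelin after injury must export or store it.

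RefSeq promoters (build GRCr8, from 250 bases before to 50 after the gene's start) were at hand for 3 of the 6 genes. They are shown because SREBP-2 binds together with factors that use CCAAT and GC boxes, and because Dhcr7 and Srebf2 had the same direction between strains at 1 week while Abca1 had the opposite one. Capitals mark the GC box (GGGCGG), the CCAAT box and the E-box (CACGTG), each searched on both strands. They are Dhcr7 at chr1:208444184-208444483 on the plus strand, Srebf2 at chr7:115543057-115543356 on the plus strand and Abca1 at chr5:72596424-72596723 on the minus strand.
Dhcr7: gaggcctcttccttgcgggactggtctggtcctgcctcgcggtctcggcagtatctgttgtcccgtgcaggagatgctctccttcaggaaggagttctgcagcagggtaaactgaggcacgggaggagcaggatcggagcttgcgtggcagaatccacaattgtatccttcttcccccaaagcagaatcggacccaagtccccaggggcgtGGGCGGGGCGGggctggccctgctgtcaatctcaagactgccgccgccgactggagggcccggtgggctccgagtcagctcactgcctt
Srebf2: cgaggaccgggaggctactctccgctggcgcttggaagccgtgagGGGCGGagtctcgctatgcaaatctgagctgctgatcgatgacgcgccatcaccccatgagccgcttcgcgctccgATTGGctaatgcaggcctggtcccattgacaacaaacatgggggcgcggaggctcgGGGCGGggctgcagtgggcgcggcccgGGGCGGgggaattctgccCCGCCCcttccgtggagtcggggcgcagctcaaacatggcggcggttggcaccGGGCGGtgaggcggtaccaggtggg
Abca1: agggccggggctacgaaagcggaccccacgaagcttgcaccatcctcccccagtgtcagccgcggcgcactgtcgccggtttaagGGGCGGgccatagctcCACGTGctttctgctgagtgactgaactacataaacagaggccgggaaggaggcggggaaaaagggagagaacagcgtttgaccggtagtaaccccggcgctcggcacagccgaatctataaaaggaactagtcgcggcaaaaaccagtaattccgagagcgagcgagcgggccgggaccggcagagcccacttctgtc

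The Dhcr7 promoter held 2 overlapping GC boxes, and the Srebf2 promoter held 5 GC boxes and 1 CCAAT box. The Abca1 promoter held 1 GC box and 1 E-box. Of all 33469 promoters, 33.1% held a GC box, 37.5% a CCAAT box and 6.42% an E-box, so the first 2 motifs are common. The sterol regulatory element core TCACNCCAC, held by 1.12% of all promoters, was not matched in the 3 windows. Nor was the LXR DR4 element in the form searched, which 0.0807% of all promoters held. Variants of these forms were not searched for, so the lack of a match does not show that the windows lack such elements. The Srebf2 window holds tcaccccat, which differs from the sterol core only in its last base. The motifs counted here are matches of letters and not binding sites.

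Each level below is the authors' single FPKM for a group of 3 rats. No value per rat was used, so no level or ratio has a standard deviation or a test, and no difference could be set against the spread between rats. Rows were named by the study's gene table, by identifiers or by gene order along the chromosome. Fdft1 and Abcg1 were named by the study's gene table, and Sqle, Dhcr7, Srebf2 and Abca1 by gene order. On the RN4 build, Fdft1 (RGD:61834) spans chr15:42425336-42453390, Sqle (RGD:3755) chr7:96096897-96111772, Dhcr7 (RGD:621769) chr1:204245562-204258913 and Srebf2 (RGD:1307751) chr7:120522511-120580212. Abca1 (RGD:631344) spans chr5:70493357-70583729 and Abcg1 (RGD:620294) chr20:9390485-9459574. None of these spans was shared with another row.

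Both pumps stood above the synthesis genes in every group. Abca1, which loads cholesterol onto lipid-poor apolipoprotein A-I, had an FPKM of 153 in SD against 188 in AN rats at 1 week, and 78.2 against 88.3 at 8 weeks. These levels lay between the 90.6th and the 96.5th percentile of all genes with an FPKM above 0. Abcg1, which exports cholesterol to HDL, had an FPKM of 70.9 in SD against 111 in AN rats at 1 week, and 52.3 against 62.6 at 8 weeks. Both pumps were highest in the acute AN group and lowest in the chronic SD group.

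Among the synthesis genes, Sqle, the squalene epoxidase and a rate-limiting step, was the most even. Its FPKM was 25.3 in SD against 29.0 in AN rats at 1 week, and 26.5 against 29.2 at 8 weeks. Fdft1, the squalene synthase that commits the pathway to sterols, had an FPKM of 21.8 in SD against 14.3 in AN rats at 1 week, and 20.6 against 24.7 at 8 weeks. Dhcr7, which catalyses the last step of one branch to cholesterol, had an FPKM of 13.6 in SD against 8.14 in AN rats at 1 week, and 16.5 against 14.1 at 8 weeks. Fdft1 and Dhcr7 were both lowest in the acute AN group, and Dhcr7 had the lowest level of the 6 genes in every group.

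Srebf2 had an FPKM of 30.0 in SD against 23.1 in AN rats at 1 week, and 32.5 against 39.2 at 8 weeks. It too was lowest in the acute AN group. In descending order of FPKM, the genes ran Abca1, Abcg1, Srebf2, Sqle, Fdft1 and Dhcr7 in 3 of the 4 groups. In acute AN rats Sqle stood above Srebf2. Which neighbours in this order differ beyond the spread between rats is not known.

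**Figure D1:**
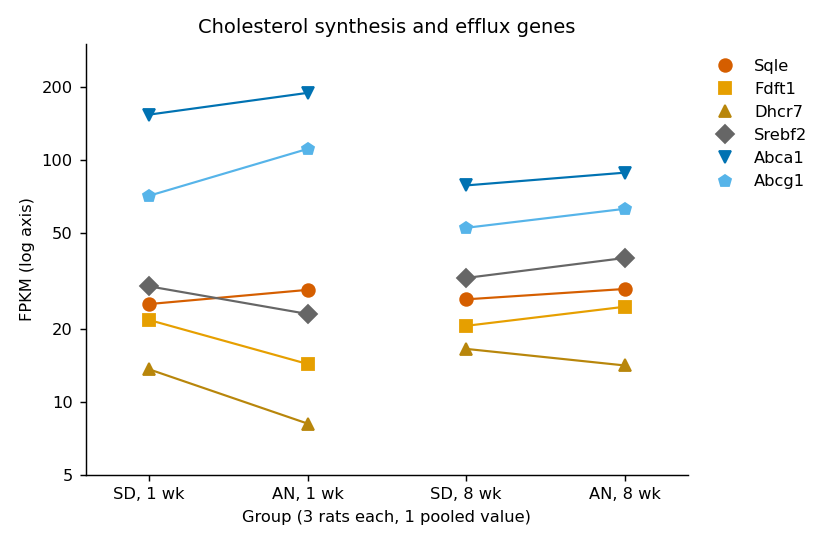
FPKM (log axis) of the 6 matched genes in the 4 groups, with 1 pooled value for 3 rats at each point and lines joining the strains within a phase. Fdft1, Dhcr7 and Srebf2 are lowest and both pumps highest in AN rats at 1 week, while Sqle stays between 25.3 and 29.2.

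At 1 week, the synthesis genes other than Sqle were lower in AN than in SD rats, and both pumps were higher. Log2FC, the log2 of AN FPKM divided by SD FPKM with no pseudocount, compares the strains. Log2FC was -0.74 for Dhcr7, -0.60 for Fdft1 and -0.38 for Srebf2. It was 0.64 for Abcg1, 0.30 for Abca1 and 0.19 for Sqle. The median over 10593 genes whose FPKM was 1 or more in both strains was 0.02.

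With a threshold of 1.5-fold, 2 of 6 genes (Fdft1 and Dhcr7) were lower in AN rats, against 13.9% of all genes. Abcg1 was the 1 gene of 6 that was higher, against 7.17% of all genes. Fdft1, at 0.658 of its SD level, and Abcg1, at 1.56 times its SD level, lay just past the threshold. Both were named by the study's gene table, of whose rows 68.6% were past 1.5-fold lower and 28.9% higher at 1 week, so the shares of all genes are not like comparators for them. Of the 4 genes named by gene order, Dhcr7 alone was past it. Dhcr7 stood at 0.597 of its SD level and Srebf2 at 0.769. Scaled as a share of the summed FPKM of the group, Abcg1 fell short of the threshold, with a log2FC of 0.55. Under that scaling 23.5% of the genes past 1.5-fold were higher in AN rats, against 34.1% as deposited.

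At 8 weeks, no gene of the 6 was past 1.5-fold in either direction. Of all 10841 genes, 5.56% were higher and 7.95% lower in AN rats by this threshold. Log2FC was 0.27 for Srebf2, 0.26 for Fdft1, 0.26 for Abcg1, 0.17 for Abca1 and 0.14 for Sqle, against a median of 0.01 over all genes. Dhcr7, at -0.23, was the 1 gene of 6 with a lower level in AN rats.

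Between phases, the log2FC of Fdft1 was higher at 8 weeks than at 1 week by 0.87 and that of Srebf2 by 0.65. These differences in log2FC were past 1.5-fold (0.58 on the log2 scale), as were 11.7% of 10381 genes in the same direction. By naming, the share was 42.5% of the rows named by the study's gene table, as Fdft1 was, and 7.27% of those named by gene order, as Srebf2 was. Dhcr7 had a difference of 0.52. The difference was -0.05 for Sqle, -0.12 for Abca1 and -0.38 for Abcg1, and no gene of the 6 was past 1.5-fold in the downward direction, against 3.82% of all genes. Fdft1 and Srebf2 therefore had opposite signs of log2FC in the phases, while Sqle and both pumps had positive values in each. The differences between phases were not tested.

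Set against each other within a group, where the scaling of a table cancels, the pumps and enzymes stood farthest apart in acute AN rats. The FPKM of Abca1 was 11.2 times that of Dhcr7 in acute SD and 23.2 times in acute AN rats, and 4.73 and 6.25 times in chronic SD and AN rats. Abca1 was 7.04 times Fdft1 in SD against 13.1 times in AN rats at 1 week, and 3.80 times against 3.58 times at 8 weeks. For Abcg1 over Fdft1 these ratios of FPKM were 3.25, 7.72, 2.54 and 2.54 in the same order of groups. At 8 weeks the strains lay close together in the ratios to Fdft1 and to Srebf2, while the ratios to Dhcr7 stayed higher in AN rats.

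Sqle parted from Dhcr7 and Fdft1 in the acute AN group. Its FPKM was 1.86 times that of Dhcr7 in acute SD and 3.56 times in acute AN rats. At 8 weeks this ratio was 1.60 in SD rats and 2.07 in AN rats. Over Fdft1, Sqle stood at 1.16 in SD against 2.02 in AN rats at 1 week, and 1.29 against 1.18 at 8 weeks. Abca1 was 2.16 times Abcg1 in acute SD and 1.70 times in acute AN rats.

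**Figure D2:**
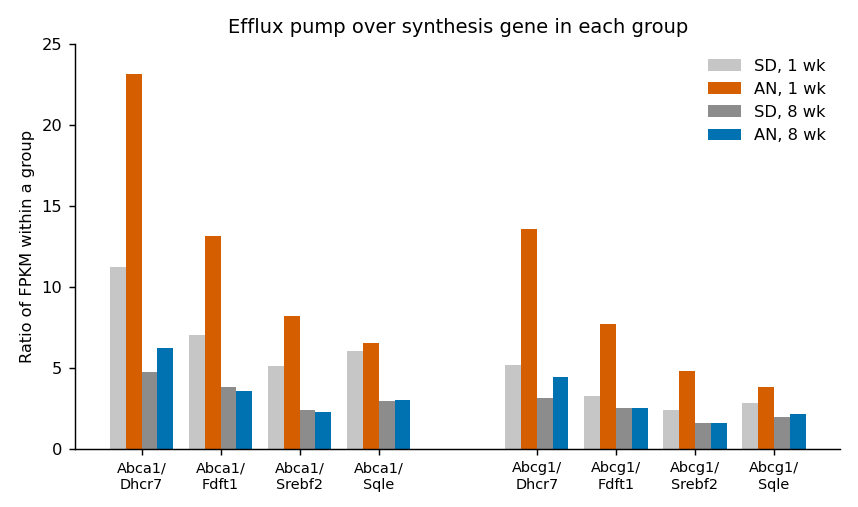
FPKM of Abca1 (left) and Abcg1 (right) divided by that of Dhcr7, Fdft1, Srebf2 or Sqle in the same group, with 1 bar for each group of 3 rats and no error bar because the values are pooled. The acute AN bar is the tallest in each set, at 23.2 for Abca1 over Dhcr7, and the bars for Sqle differ least between the strains at 1 week.

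From 1 to 8 weeks, the synthesis genes other than Sqle were higher at 8 weeks in AN rats and lay within 0.28 of 0 on the log2 scale in SD rats, while the pumps were lower at 8 weeks in both strains. The tables were normalized separately, and the 8-week rats were older when the tissue was taken, so these ratios are a description. The log2 ratio of the 8-week to the 1-week FPKM in AN rats was 0.80 for Dhcr7, 0.78 for Fdft1, 0.77 for Srebf2 and 0.01 for Sqle. In SD rats it was 0.28 for Dhcr7, 0.11 for Srebf2, 0.06 for Sqle and -0.08 for Fdft1. For Abca1 it was -0.97 in SD and -1.09 in AN rats, and for Abcg1 -0.44 in SD and -0.82 in AN rats. The median over all genes was 0.01 in both strains.

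In AN rats 3 of 6 genes (Fdft1, Dhcr7 and Srebf2) were past 1.5-fold higher at 8 weeks, against 18.4% of all genes, and both pumps were past it lower, against 12.5%. Among rows named by the study's gene table, as Fdft1 and Abcg1 were, 54.6% were higher and 24.0% lower, while 13.1% and 11.7% of those named by gene order were. In SD rats no gene of the 6 was past 1.5-fold higher, against 8.91% of all genes. Abca1 was the 1 gene past it lower in SD rats, against 7.72% of all genes. The strain comparisons and the time comparisons share their groups, so they are not independent of each other.

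**Figure D3:**
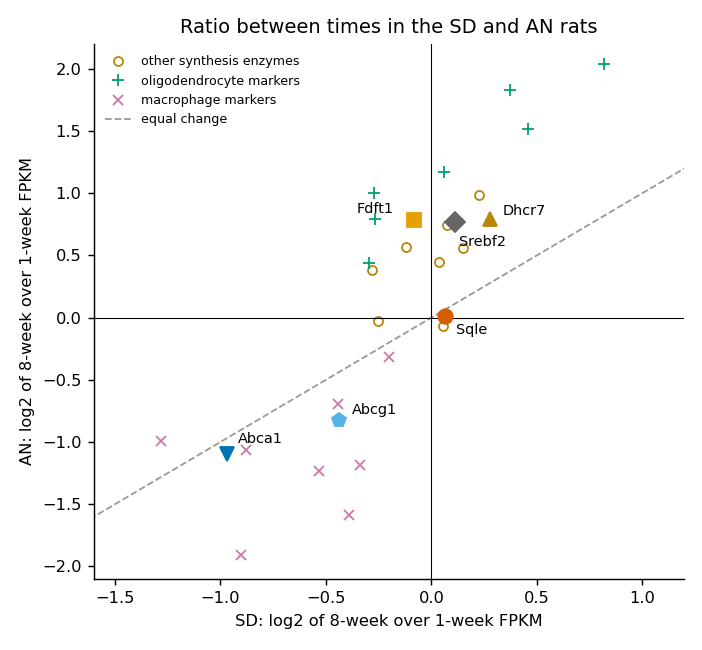
Log2 ratio of the 8-week to the 1-week FPKM in SD rats (horizontal axis) and AN rats (vertical axis) for the 6 genes (filled, named), 8 other synthesis enzymes, 7 oligodendrocyte markers and 8 macrophage markers, with 1 point per gene and a dashed line of equal change. Fdft1, Dhcr7 and Srebf2 lie near 0.8 in AN rats, above the 8 other synthesis enzymes except Sc5d (0.99). Abca1 and Abcg1 are lower at 8 weeks in both strains.

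The wider synthesis pathway was described with a list of 19 enzymes, of which 11 were named among the rows. At 1 week, 9 of these 11 had a negative log2FC and 5 were past 1.5-fold lower in AN rats, against 13.9% of all genes, with a median log2FC of -0.29 against 0.02 over all genes. The sterol reductase Tm7sf2 had the lowest value, an FPKM of 9.97 in acute SD and 4.80 in acute AN rats. Log2FC was -1.05 for Tm7sf2, -0.72 for the desaturase Sc5d and -0.63 for the demethylase Cyp51, beside the values of Dhcr7 and Fdft1 given above.

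The remaining enzymes lay closer to 0 at 1 week. Log2FC was -0.29 for Pmvk and -0.22 for Mvd, which act in the mevalonate pathway, -0.17 for Lss, the lanosterol synthase, and -0.01 for Hsd17b7. The isomerase Ebp, at 0.31, was the 1 enzyme besides Sqle with a higher level in AN rats. At 8 weeks none of the 11 was past 1.5-fold, against 5.56% of all genes higher and 7.95% lower, and the median log2FC was 0.12 against 0.01 over all genes. Lss had the highest value, 0.50, and Tm7sf2 the lowest, -0.39.

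How a row came by its name bears on this count. All 4 enzymes named by the study's gene table (Fdft1, Cyp51, Tm7sf2 and Sc5d) were past 1.5-fold lower at 1 week, against 1 of the 7 named by gene order (Dhcr7). Over all genes, 68.6% of the rows named by that table were past 1.5-fold lower and 28.9% higher at 1 week, while 5.12% and 4.03% of those named by gene order were. The part of that table used here thus holds mostly genes with a difference in these samples. Of all named rows 15.9% were past 1.5-fold lower at 1 week, against 8.02% of the unnamed rows. The count of 5 is 45.5% of the named and 26.3% of the listed enzymes.

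Of 7 listed regulators of SREBP, Srebf2 and Mbtps1 could be named. Mbtps1, a protease that releases SREBP from the membrane, had an FPKM between 58.0 and 71.8 in the 4 groups and a log2FC of 0.05 at 1 week and 0.31 at 8 weeks. Of the uptake, trafficking and storage genes, 9 of 13 were named and 8 passed the filter on low FPKM, with a median log2FC of 0.17 at 1 week and 0.18 at 8 weeks. At 1 week 1 of the 8, Soat1, was past 1.5-fold higher, against 7.17% of all genes, and it is the 1 gene of this list named by the study's gene table. At 8 weeks none was, against 5.56% of all genes higher and 7.95% lower.

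Soat1, which esterifies cholesterol for storage in droplets, had the direction of the pumps in each comparison. Its FPKM was 80.1 in SD against 124 in AN rats at 1 week, and 47.2 against 70.2 at 8 weeks. Its log2FC was 0.62 at 1 week and 0.57 at 8 weeks. Lrp1, a receptor for lipoproteins and myelin debris, had a log2FC of 0.31 and 0.39. The receptors Vldlr and Lrp8 had values of -0.45 and -0.55 at 1 week.

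Of 10 efflux and lipoprotein genes, 8 could be named and 7 had a ratio. Apoe, which carries lipid in the nervous system, was marked as a failed estimate and is listed at 0. At 1 week, Apoc1 (log2FC 0.97) and Abcg1 were past 1.5-fold higher and Abcg4 (-1.47) and Lcat (-1.25) past it lower in AN rats, which is 2 of 7 in each direction against 7.17% and 13.9% of all genes. These are the 4 genes named by the study's gene table, of whose rows 28.9% were past 1.5-fold higher and 68.6% lower, and 0 of the 3 named by gene order were past it. Abcg4, a pump related to Abcg1, had an FPKM of 4.76 in acute SD and 1.71 in acute AN rats. Abca7 had a log2FC of -0.03 in both phases, so the pumps did not share 1 direction. At 8 weeks the 2 genes past 1.5-fold lower, against 7.95% of all genes, were Apoc1 (log2FC -1.28) and Abcg4, at 0.499 of its SD level. Both were named by the study's gene table, of whose rows 37.1% were past 1.5-fold lower at 8 weeks, and 0 of the 3 named by gene order were.

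The LXR receptor Nr1h2 had an FPKM between 68.8 and 78.1 in the 4 groups and a log2FC of 0.00 at 1 week and 0.06 at 8 weeks. Its partner receptors had a log2FC of 0.43 (Rxra), -0.36 (Rxrb) and -0.81 (Rxrg) at 1 week. Rxrg had a log2FC of 0.58 at 8 weeks. Of 10 known LXR targets, 5 could be named, both pumps among them, and all 5 had a positive log2FC at 1 week. Their median was 0.64, against 0.02 over all genes, and 3 were past 1.5-fold higher, against 7.17% of all genes. These 3 were the ones named by the study's gene table, of whose rows 28.9% were past it higher. At 8 weeks 3 of the 5 had a positive log2FC, and 1 was past 1.5-fold higher and 1 lower, against 5.56% and 7.95% of all genes.

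Among enzymes that make oxysterols, the ligands of LXR, Cyp46a1, a neuronal enzyme, had an FPKM of 12.7 in acute SD and 2.68 in acute AN rats, a log2FC of -2.24. It was -0.84 at 8 weeks. Ch25h had a log2FC of 0.38 and 0.37 in the phases. Cyp27a1 had a log2FC of -0.35 at 1 week and 0.15 at 8 weeks.

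**Figure D4:**
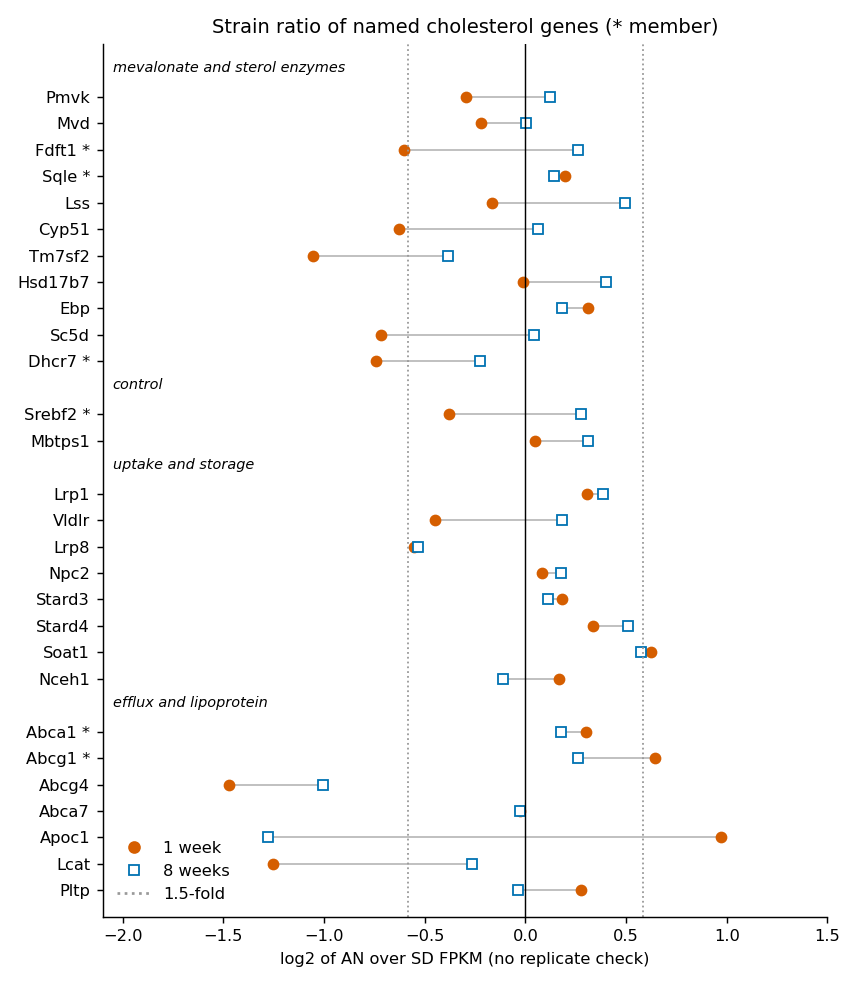
Log2FC (AN over SD FPKM) of the named cholesterol genes at 1 week (filled circles) and 8 weeks (open squares), with 1 pooled value per group, no error bars and dotted lines at 1.5-fold. At 1 week 5 synthesis enzymes lie past the left line, Tm7sf2 farthest at -1.05, and at 8 weeks none of the 11 does.

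Markers of cell types differed between the groups as well. The 7 of 10 oligodendrocyte markers that could be named (Mog, Mag and Cnp among them) had a summed FPKM of 2856 in SD against 1428 in AN rats at 1 week, and 2778 against 2821 at 8 weeks. Their log2FC at 1 week lay between -1.91 and -0.71, all past 1.5-fold lower against 13.9% of all genes, with a median of -1.27, and the median at 8 weeks was -0.19. At 1 week Dhcr7 lay 0.52, Fdft1 0.66, Srebf2 0.89 and Sqle 1.46 above that median on the log2 scale, and Sqle had the opposite sign. The 4 Schwann cell markers that could be named summed to 693 in SD against 302 in AN rats at 1 week, and 782 against 811 at 8 weeks. None of these markers was at 0, and Mog shares its span with another row. The study's gene table named 6 of these 7 oligodendrocyte and 6 of the 8 macrophage markers below. At 1 week 68.6% of all rows it named were past 1.5-fold lower and 28.9% higher.

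On the phagocyte side, 8 of 10 macrophage markers (Cd68, Itgam and Csf1r among them) had a summed FPKM of 1724 in SD against 2687 in AN rats at 1 week, and 1034 against 1289 at 8 weeks. All 8 had a positive log2FC at 1 week, from 0.13 to 1.95, and 7 were past 1.5-fold higher, against 7.17% of all genes. Their median was 0.98 at 1 week, against 0.02 over all genes, and 0.21 at 8 weeks, against 0.01. Abca1 lay 0.68 and Abcg1 0.34 below the macrophage median at 1 week on the log2 scale. The 4 named markers of lipid-laden phagocytes (Gpnmb, Trem2 and Lgals3 among them) had a log2FC between 0.52 and 1.22 at 1 week. Of these, 3 were past 1.5-fold higher, against 7.17% of all genes. The 4 had a summed FPKM of 6188 in SD against 10185 in AN rats at 1 week and 4775 against 6434 at 8 weeks. At 8 weeks log2FC was 0.87 for Gpnmb, 0.04 for Trem2 and -0.01 for Lgals3, and the highest of the 4 was 1.62. In tissue, fewer cells of a type and less RNA per cell cannot be told apart, and the part of these markers in the ratios of the 6 genes was not tested.

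Markers of other cell types were unequal too. The 6 neuron markers had a summed FPKM of 811 in acute SD and 103 in acute AN rats, and 774 and 214 at 8 weeks. The 3 astrocyte markers with an estimate in both tables summed to 2443 in SD against 883 in AN rats at 1 week and 4845 against 3500 at 8 weeks, with a median log2FC of -1.69 and -0.27. Most of that sum was S100b, and Gja1 had a log2FC of 0.12 at 1 week. Gfap was listed at 0 with a failed estimate in chronic SD rats. The 3 fibroblast markers had a log2FC between 0.46 and 0.76 at 1 week and a summed FPKM of 2106 in SD against 3502 in AN rats, and 646 against 986 at 8 weeks. The 2 endothelial markers, Cdh5 and Flt1, had a log2FC of 0.18 and -0.11 at 1 week and 0.79 and 0.21 at 8 weeks. Their summed FPKM was 65.6 in SD against 72.5 in AN rats at 1 week, and 66.9 against 111 at 8 weeks. The 5 T cell markers were low, with a summed FPKM of 6.23 in SD against 2.90 in AN rats at 1 week, and 6.96 against 7.36 at 8 weeks. Cd2 was higher in AN rats in both phases, and the 4 markers without it summed to 5.02 against 1.18 at 1 week and 5.07 against 3.55 at 8 weeks. S100b and Cd2 were picked out after their values were seen. The part of these markers was not tested either.

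Genes outside the lists were ranked by how near their 4 log2 FPKM values, centred within the gene, lay to the mean of Sqle, Fdft1 and Dhcr7, among 4789 named genes whose FPKM was 10 or more in all 4 groups. The nearest were Maoa, at a distance of 0.02 on the log2 scale, Tmem42, Ccdc107, Porcn and Srxn1, at up to 0.06. Their log2FC at 1 week ranged from -0.39 to -0.34. Fdft1 itself lay 0.22 from this mean, Dhcr7 0.40 and Sqle 0.49. The nearest to the mean of Abca1 and Abcg1 were Galc, Osbpl11, Ppp1r18, Nrros and Tnfaip8l2, at 0.06 to 0.09, with each pump at 0.24. Galc, a lysosomal enzyme that degrades myelin galactolipid, had an FPKM of 41.4 in SD against 57.5 in AN rats at 1 week, and 26.3 against 31.1 at 8 weeks.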

How the data were processed

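RNA was sequenced from the contused cord segment of 12 rats, 3 in each of 4 groups. The authors removed adapters (cutadapt), mapped reads to RN4 (TopHat 1.5.0), assembled transcripts (Cufflinks 0.0.6) with quartile normalization and merged them for each time point. The deposited FPKM values, from Cuffdiff, are 1 per gene and group in each of 2 tables. Reads per gene and library depths were not used here, and no interval was computed. The tables also hold the authors' own fold changes, test statistics, p-values and q-values, which were not used. No values per rat were used.

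Log2 ratios of FPKM were computed with Python 3.11.15 and pandas 2.3.3, without a pseudocount. The 1.5-fold count rule was run on simulated data with planted changes well past it. That run checks the arithmetic only and not any ratio given here. Shares of all genes took genes whose FPKM was 1 or more in both groups. Of 17423 rows, 4537 were named directly and 6950 by gene order in RefSeq (GRCr8). Of 2000 held-out direct names, 1311 were named again, 98.2% rightly. A total of 21 symbols on more than 1 row and 4 rows with a failed estimate were left out. The rule named the members, all usable genes of the pathway lists, up to 3 genes of a marker list, and the 5 genes nearest in pattern. Members, lists and thresholds were chosen with earlier results of these data known. Some genes of the lists are not reported here.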

Additional observations from a re-analysis of the deposited data

Results flagged for a closer look

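Apoc1, an apolipoprotein carried on lipoproteins, differed between the strains in opposite directions in the 2 phases. Its FPKM was 183 in SD against 359 in AN rats at 1 week, and 54.2 against 22.4 at 8 weeks. The log2FC at 8 weeks minus that at 1 week was -2.25. With 1 pooled value per group, this difference was not tested. Outliers among rats were not looked for, since values per rat were not used here.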

How the results depend on the processing

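The reads behind each gene were not used here, and no ratio was set against the spread between rats, since the values used are pooled. No paired analysis was possible because the tables used here hold 1 pooled value per group, and leaving out a replicate was not possible for the same reason. Of the 30 ratios of the 6 genes, none changed direction past the threshold with a pseudocount of 0.1 or 1, with median-centred ratios or with FPKM as a share of the group's sum. At 1 week, Fdft1 fell short of 1.5-fold with a pseudocount of 1 (log2FC -0.57), and Abcg1 fell short as a share of the sum (0.55), which left 0 genes higher; these 2 lay nearest to the threshold. At 2-fold, 0 of the 6 genes were higher and 0 lower at 1 week, against 1.63% and 7.40% of all genes, and 0 were lower with time in SD rats, against 2.84%. With time in AN rats 0 were higher and 1 (Abca1) lower, against 9.59% and 5.22%, and 0 differed upward between phases, against 4.08%. At a threshold of 25%, 2 genes were lower with time in SD rats, against 16.7% of all genes, and 1 (Abcg1) differed downward between phases, against 12.3%. At that threshold 3 genes were lower at 1 week, against 22.1% of all genes, and 3 differed upward between phases, also against 22.1%.

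The shares of all genes past the threshold, 3.82% to 18.4%, were 12.3% to 28.7% at a threshold of 25% and 1.09% to 9.59% at 2-fold, by construction of these settings. With no filter but an FPKM above 0 the shares were 7.07% to 26.1%. With an FPKM of 1 or more in either group they were 4.27% to 21.5%. Without names by gene order, 4 of 4 synthesis enzymes were past 1.5-fold lower at 1 week. Lists then held fewer and more often changed genes. The median log2FC at 1 week became -0.67 for the synthesis enzymes (from -0.29) and -0.31 for the efflux genes (from 0.27), a turned sign. That of efflux genes became -0.63 at 8 weeks (from -0.04), and their ratio with time in AN rats -0.021 (from -0.82). For oxysterol enzymes, with 1 gene left, the log2FC was -2.24 at 1 week and -0.84 at 8 weeks, the difference between phases 1.40 and the ratio with time in AN rats 2.16. For lipid-laden phagocyte markers, also with 1 gene left, it was 1.62 at 8 weeks, and the ratio with time in SD rats was -1.54. For T cell markers, again with 1 gene, it was -0.88 at 8 weeks. With FPKM above 0 in place of at least 1, the T cell median was -1.84 at 1 week and the difference between phases 1.48.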

Other observations

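Of 8 listed genes of fatty acid synthesis, 3 could be named, all by the study's gene table, and all 3 had a negative log2FC at 1 week. They and Lcat are given here after their values were seen. Elovl6, a fatty acid elongase, had an FPKM of 10.5 in SD against 5.15 in AN rats at 1 week, and 6.86 against 6.24 at 8 weeks. Acss2, which makes acetyl-CoA, had a log2FC of -0.71 and the desaturase Fads1 -0.55 at 1 week. At 8 weeks the 3 values lay between -0.38 and -0.14. Lcat, which esterifies cholesterol on lipoproteins, had an FPKM of 109 in SD against 45.6 in AN rats at 1 week, and 376 against 313 at 8 weeks, so its log2 ratio of 8 weeks to 1 week was 1.79 in SD and 2.78 in AN rats, opposite in sign to those of Abca1 and Abcg1.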
